A study of Mus musculus with 8 samples.

Results

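The 35 genes described here encode the enzymes and transporters that make and process the lipids of the skin barrier. All 35 were taken by gene symbol from probe sets that name 1 gene only, with the probe set of the highest mean level where a gene had several, out of 22180 genes measured. They were sorted into 6 steps: ceramide synthesis (9 genes), elongation of very long chain fatty acids (4), acylceramide synthesis and export (6), headgroup transfer and ceramide turnover (7), the lipoxygenase pathway (5), and epidermal acid lipases with cholesterol sulphation (4). Epidermal RNA of newborn C57BL/6J mice at postnatal day 0 was measured on 8 arrays. In 4 of them (K320E-TwinkleEpi, K320E below) a mutant of the mitochondrial helicase Twinkle was, per the series' design text, controlled by the promoter of keratin 14, which is active in basal keratinocytes and in the hair follicle and sebaceous gland. Whether that promoter drives the construct itself or switches it on is not stated there. The other 4 were controls with the genotype R26-K320E-TwinkleloxP/+, so the construct is named in the genotype of both groups. The labels do not say whether the arrays came from separate animals, so each p-value reflects the scatter among these 8 samples alone, part of which may be technical.

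The outer epidermis holds back water with sheets of ceramides, cholesterol and free fatty acids between the cornified cells. Ceramide synthesis starts from serine and a fatty acid, and the acyl chain is lengthened by elongases. The longest acyl chains are hydroxylated at their end, and the ceramides that carry them are esterified with linoleate to give acylceramides. Keratinocytes load these lipids as glucosylceramides and sphingomyelins into lamellar granules, release them at the granular layer, and oxidise the linoleate with lipoxygenases so that the lipid can be bound to the cornified envelope. Inherited loss of several of these genes causes ichthyosis, a scaling disorder of the skin.

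All values are log2 intensities as deposited. Twnk, the gene of the helicase, measured 9.28, 9.09, 8.91 and 8.91 in K320E and 6.55, 6.95, 6.64 and 6.80 in controls. Its level followed the genotype label on every array, and it rose 4.97-fold (log2 difference 2.31, SE 0.11, limma adjusted p = 0.00011). Keratinocyte markers were near the top of the scale in both groups: Krt10 measured 12.91 in K320E and 12.91 in controls, and the granular layer protease Asprv1 12.59 and 12.53, while Krt2 was low in both, at 5.73 and 5.90. The barrier lipid genes were strongly expressed as well. Their median level over the 8 arrays was 9.58 against 6.36 for all genes, and 34 of the 35 were among the 7394 most highly expressed genes. Here and below, strongly or highly expressed means a high probe set signal. Such signals do not rank the genes' transcripts against each other, so differences are read for each gene between the groups only.

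None of the 35 genes passed limma's test over all genes (0 of 35 at an adjusted p under 0.05, where 0.879% of all genes were called). At an unadjusted p under 0.05 there were 12 of 35 (34.3%), 10 higher and 2 lower in K320E. Of all genes 14.8% had such a p (8.77% higher and 6.06% lower), and 25.3% of the 7394 most highly expressed genes. The groups did not overlap for 6 of the 35, namely Degs2, Cers3, Sgms1, Smpd3 and Alox12b, higher in K320E, and Fa2h, lower. That was 17.1% of the genes, against 9.25% of all genes (5.5% higher and 3.75% lower) and 15.8% of the 7394 most highly expressed genes, so this share was close to that of other strongly expressed genes. Log2 fold changes (K320E minus control) were positive for 26 and negative for 9, with a median of 0.17, while the median over all genes was -0.00052 and over the 7394 most highly expressed genes 0.03, with 56.8% of the latter positive.

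The count of members called stayed at 0 of 35 in most other fits. It was 0 after quantile normalisation (0.884% of all genes called), median centring (0.825%), averaging over probe sets (0.888%), with array weights (0.902%) and with the replicate number as a block (0.514%). Degs2 alone was called when only the 14786 genes of higher level were tested (1.95%), with an intensity trend and robust prior (1.06%), and without control replicates 2 and 3 (0.834%). Those arrays held the highest Degs2 levels of the controls (9.03 and 9.36), so leaving them out raises its difference. With 1 array left out, 0 to 1 of the 35 were called, and 0.239% to 0.78% of all genes. The highest count, 3 (1.64% of all genes), came with a mean of granular layer markers as a covariate, chosen with the data known. With a mean of hair follicle markers as a covariate it was 0 (0.0135%). Both covariates are described below.

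**Figure D1:**
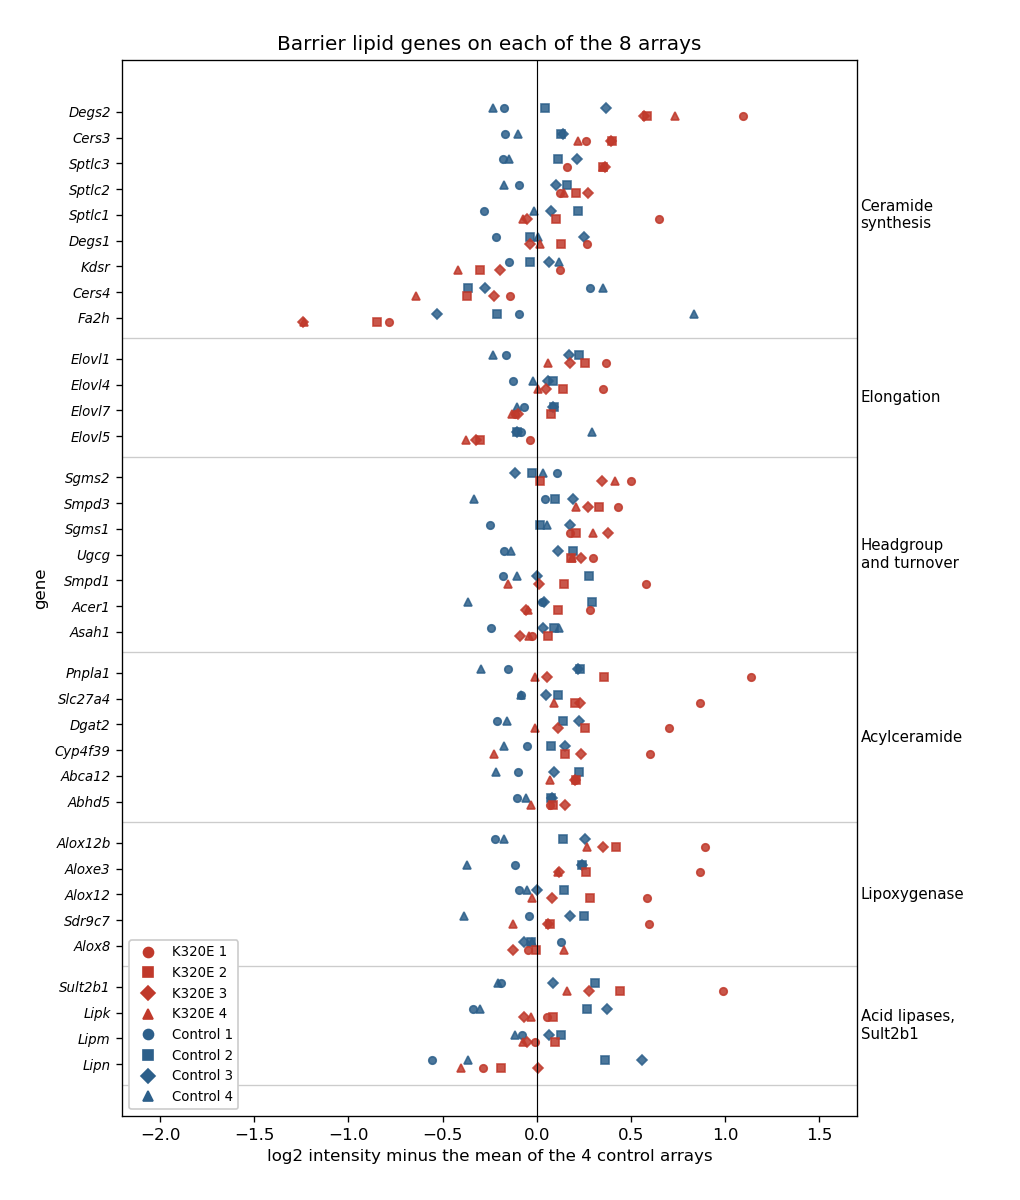
Log2 intensity of each of the 35 genes on each array, less the mean of the 4 control arrays (x axis), with the genes grouped by step (y axis), K320E in red, controls in blue and the replicate number as the marker shape. K320E replicate 1 was the highest K320E array for 23 of the 35 genes.

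Promoter windows are shown for the non-overlapping genes that the RefSeq promoter table (GRCm38.p6) lists. The gap between the groups was small for Cers3, Sgms1 and Alox12b. The table held 29 of the 35 genes. Each window is the 250 bases before the outermost listed start, given 5′ to 3′ on the gene's strand, and capitals mark a CACACCC or GGGTGTG match, the CACCC box bound by factors such as KLF4.
Degs2, chr12:108702307-108702556 (minus strand): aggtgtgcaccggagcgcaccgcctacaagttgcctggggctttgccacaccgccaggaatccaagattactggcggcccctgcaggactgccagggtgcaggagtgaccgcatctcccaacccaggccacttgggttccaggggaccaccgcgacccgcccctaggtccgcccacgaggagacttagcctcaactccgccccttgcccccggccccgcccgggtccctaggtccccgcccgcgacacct
Cers3, chr7:66743254-66743503 (plus strand): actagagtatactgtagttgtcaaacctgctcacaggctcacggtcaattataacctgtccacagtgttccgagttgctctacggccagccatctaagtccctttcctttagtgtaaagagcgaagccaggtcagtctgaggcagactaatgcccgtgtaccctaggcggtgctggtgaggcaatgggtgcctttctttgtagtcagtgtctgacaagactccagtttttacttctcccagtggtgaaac
Alox12b, chr11:69156822-69157071 (plus strand): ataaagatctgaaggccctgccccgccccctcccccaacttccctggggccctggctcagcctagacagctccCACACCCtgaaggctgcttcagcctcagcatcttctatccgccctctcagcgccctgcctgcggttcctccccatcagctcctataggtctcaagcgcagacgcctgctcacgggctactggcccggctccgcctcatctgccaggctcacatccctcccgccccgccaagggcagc
Sgms1, chr19:32388513-32388762 (minus strand): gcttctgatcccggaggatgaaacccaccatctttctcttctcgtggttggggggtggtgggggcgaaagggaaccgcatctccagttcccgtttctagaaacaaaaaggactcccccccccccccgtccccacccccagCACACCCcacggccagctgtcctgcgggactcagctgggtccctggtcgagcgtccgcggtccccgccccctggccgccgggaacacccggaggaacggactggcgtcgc
The windows of Degs2 and Cers3 held none of the 12 motifs searched on both strands, while the printed windows of Alox12b and Sgms1 each held 1 CACCC box, its first letter 177 and 110 bases before the start. Over the 39 windows of the 29 genes, 15.4% held this box (CACACCC), against 6.93% of all 32851 windows of that length. The genes were Alox12, Alox12b, Elovl1, Sgms1 and Sptlc1. The AP-1 motif TGANTCA stood in 12.8%, in Lipn, Sgms1, Sgms2 and Sult2b1, against 6.75%, and the grainyhead-like motif AACCNGTT in 2.56% against 1.79%. The direct repeat of AGGTCA bound by PPAR and RXR was in 0% against 0.0335%. The other motifs were the TATA box TATAAA (2.56% against 12.4%), a C/EBP palindrome TTGCGCAA (0% against 0.164%) with its looser form TTNNGNAA (28.2% against 36.9%), which can overlap it, and a sterol element TCACNCCAC (0% against 1.05%). The last were the TEAD motif CATTCC (15.4% against 12.6%), the GATA motif AGATAA (5.13% against 9.99%), the amino acid response motif TGATGNAA (7.69% against 3.45%) and the p63 motif, a pair of CATG (2.56% against 0.49%). Shares of members' windows lay both above and below those of all windows. These are matches of letters, several starts of 1 gene can lie close together, and no binding was measured.

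Ceramide synthesis held both the highest and the lowest difference of the 35 genes. Degs2 encodes the enzyme that desaturates dihydroceramide and also hydroxylates it to the phytoceramides abundant in epidermis. Its level was 10.08, 9.57, 9.56 and 9.72 in K320E replicates 1 to 4 and 8.81, 9.03, 9.36 and 8.76 in the controls. All 4 K320E arrays lay above all 4 controls, the nearest control being replicate 3. The log2 difference was 0.75 (SE 0.15) or 1.68-fold, with a 95% interval of 0.40 to 1.09, but it did not pass over all genes (limma adjusted p = 0.067). It passed without control replicate 3 (0.87, limma adjusted p = 0.035, with 0.771% of all genes called) and was 0.63 without K320E replicate 1 (adjusted p = 0.118).

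Fa2h stood at the other end. It encodes the hydroxylase that adds a 2-hydroxyl group to the fatty acids of ceramides and is known for its role in sebaceous glands. K320E replicates 1 to 4 measured 7.52, 7.46, 7.07 and 7.07, and the controls 8.22, 8.10, 7.78 and 9.14. Every K320E array was below every control, and control replicate 4 stood above the rest. The difference was -1.03 (SE 0.26, limma adjusted p = 0.118), which is 2.04-fold lower in K320E, and -0.75 without control replicate 4. In such bulk samples, fewer cells of a type and less RNA per cell cannot be told apart.

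The 2 ceramide synthases among the members had differences of opposite sign. Cers3, which uses the ultra long acyl chains of barrier ceramides, measured 10.85, 10.99, 10.98 and 10.81 in K320E and 10.42, 10.72, 10.73 and 10.49 in controls. The groups did not overlap, though the gap between K320E replicate 4 and control replicate 3 was small. Its log2 difference was 0.32 (SE 0.09, limma adjusted p = 0.14). Cers4, a synthase for shorter chains, measured 7.62, 7.39, 7.53 and 7.11 in K320E and 8.04, 7.39, 7.48 and 8.11 in controls, a difference of -0.34 (SE 0.18, limma adjusted p = 0.427) with overlapping groups. Control replicates 1 and 4 alone held its higher values.

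The enzymes at the start of the pathway differed less. Sptlc1, Sptlc2 and Sptlc3 encode subunits of serine palmitoyltransferase, which makes the first committed product, and had log2 differences of 0.16, 0.19 and 0.31. That of Sptlc1 was -0.0079 without K320E replicate 1, whose level of 9.94 stood above the 9.22 to 9.39 of the other K320E arrays. For Sptlc3, 3 K320E arrays lay between 11.70 and 11.71 and the remaining one, replicate 1, at 11.50, below control replicate 3 at 11.56. Kdsr, the reductase of the next reaction, had a difference of -0.20, and Degs1, the widely expressed dihydroceramide desaturase, one of 0.09 (95% interval -0.14 to 0.33). Without K320E replicate 1 these were -0.31 and 0.04. Over the 9 genes of ceramide synthesis 6 differences were positive and 3 negative, with a median of 0.16. This median was 0.04 without K320E replicate 1.

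**Figure D2:**
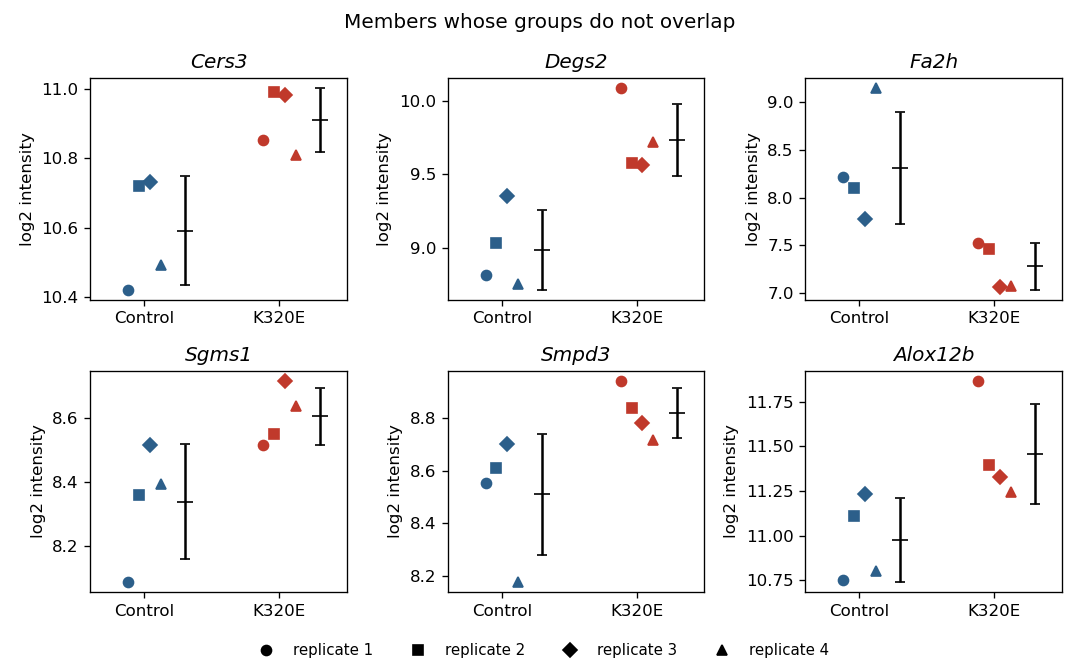
Log2 intensity (y axis) of the 6 genes whose groups did not overlap, by group (x axis), with each array as a point, the replicate number as its shape, and the mean and SD of 4 arrays as a bar. Cers3, Degs2, Sgms1, Smpd3 and Alox12b are higher and Fa2h lower on every K320E array.

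Elongases of very long chain fatty acids had a median difference of 0.04, with 2 positive and 2 negative. Elovl4, which makes the ultra long chains of acylceramides, had a mean of 11.78 ± 0.15 on the K320E arrays and 11.64 ± 0.10 on the control arrays (SD, n = 4), which is 0.14 apart with a 95% interval of -0.06 to 0.33, and 0.07 apart without K320E replicate 1. Elovl1, which supplies saturated very long chains, had the highest difference of the step. It measured 11.21, 11.10, 11.01 and 10.90 in K320E and 10.68, 11.06, 11.01 and 10.61 in controls, a log2 difference of 0.21 (SE 0.12, limma adjusted p = 0.446). The groups overlapped through control replicates 2 and 3, and the difference was 0.14 without control replicate 4. Elovl7, an elongase of saturated acyl chains, had a difference of -0.07 (95% interval -0.23 to 0.10). Elovl5, which elongates polyunsaturated fatty acids, had the lowest: 8.87, 8.61, 8.58 and 8.53 in K320E against 8.82, 8.80, 8.80 and 9.20 in controls, a difference of -0.26 (SE 0.11, limma adjusted p = 0.318). K320E replicate 1 lay above 3 of the controls, and control replicate 4 above all other arrays.

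All 6 genes of acylceramide synthesis and export had positive differences, with a median of 0.23, and none had groups that did not overlap. With the mean of hair follicle markers as a covariate 3 of the 6 were positive and the median was 0.02. That marker mean itself did not overlap between the groups, so the fit cannot fully separate it from genotype and can shift differences either way. In the same fit the median of acid lipases and Sult2b1 moved from 0.0012 to -0.26. Without K320E replicate 1 and control replicate 4 together 5 of the 6 were positive and the median was 0.06. Pnpla1, the transacylase that puts linoleate on the ceramide, had the highest. It measured 10.76, 9.98, 9.68 and 9.61 in K320E and 9.47, 9.85, 9.84 and 9.32 in controls. Only K320E replicates 1 and 2 exceeded all controls, and replicate 1 was 1.00 above the mean of the other 3 K320E arrays. The log2 difference of 0.39 (SE 0.24, limma adjusted p = 0.523) was 0.13 without that array, and a second Pnpla1 probe set of much lower level gave 0.05. Slc27a4, the fatty acid transport protein that activates fatty acids with coenzyme A, had a similar spread: 8.37 in K320E replicate 1 against 7.59 to 7.73 in the other 3 K320E arrays and 7.42 to 7.61 in controls, a difference of 0.35 that was 0.18 without replicate 1. Dgat2, which makes triglyceride, and Cyp4f39, which hydroxylates the chain end, had differences of 0.27 and 0.19, which were 0.12 and 0.05 without the same array. Abca12, the transporter that fills lamellar granules, measured 12.02, 12.02, 12.02 and 11.88 in K320E and 11.71, 12.04, 11.91 and 11.60 in controls, a difference of 0.17 (95% interval -0.04 to 0.39). Abhd5, the partner protein of PNPLA1, had the lowest difference of the step, 0.07: its K320E arrays read 10.99, 11.00, 11.07 and 10.89, and its controls 10.82, 10.99, 11.00 and 10.86.

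Among genes of headgroup transfer and turnover, 6 of 7 differences were positive, with a median of 0.23. Both sphingomyelin synthases were among them. Sgms1 measured 8.52, 8.55, 8.72 and 8.64 in K320E and 8.09, 8.36, 8.51 and 8.40 in controls, so that the groups were separated only by the small gap between K320E replicate 1 and control replicate 3 (difference 0.27, SE 0.09, limma adjusted p = 0.228). Sgms2 had the highest difference of the step, 0.32 (SE 0.10, limma adjusted p = 0.199). Its K320E arrays measured 7.78, 7.30, 7.63 and 7.70 and its controls 7.39, 7.26, 7.16 and 7.31, and K320E replicate 2 lay within the control range. Ugcg, the glucosylceramide synthase, had a mean of 9.56 ± 0.05 on the K320E arrays and 9.33 ± 0.18 on the control arrays (SD, n = 4, difference 0.23, limma adjusted p = 0.275).

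The sphingomyelinases and ceramidases release and break down ceramide. Smpd3, a neutral sphingomyelinase, measured 8.94, 8.84, 8.78 and 8.72 in K320E and 8.55, 8.61, 8.70 and 8.18 in controls. The groups did not overlap, and control replicate 4 stood below the other controls. Its difference was 0.31 (SE 0.11, limma adjusted p = 0.232) and 0.20 without that array. Smpd1, the acid sphingomyelinase, had a difference of 0.15 that was 0.0021 without K320E replicate 1, and its second probe set gave 0.36. For the ceramidases the differences were near 0. Asah1, the acid ceramidase, measured 9.50, 9.59, 9.44 and 9.48 in K320E and 9.28, 9.62, 9.56 and 9.65 in controls, a difference of -0.02 with a 95% interval of -0.22 to 0.17. Acer1, the alkaline ceramidase of epidermis, had a difference of 0.07 (95% interval -0.23 to 0.38), which was -0.05 without control replicate 4.

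The lipoxygenase pathway had 4 positive differences of 5 and a median of 0.23. Alox12b, the lipoxygenase that first oxidises the linoleate of acylceramides, measured 11.87, 11.40, 11.33 and 11.24 in K320E and 10.75, 11.11, 11.23 and 10.80 in controls. All K320E arrays were above all controls, replicate 4 by a small margin over control replicate 3. The log2 difference was 0.48 (SE 0.15, limma adjusted p = 0.193), or 1.40-fold, and 0.35 without K320E replicate 1. Aloxe3, which acts on its hydroperoxide product, had a difference of 0.34 (SE 0.19) and 0.16 without that array, whose level of 10.41 stood above the 9.66 to 9.80 of the other K320E arrays. Sdr9c7, the dehydrogenase that follows, had a difference of 0.15 and one of 0.0027 without the same array. Alox12, a lipoxygenase of platelets and skin, had a difference of 0.23 and of 0.11 without K320E replicate 1. Alox8 had the lowest difference of the pathway, -0.01 (95% interval -0.17 to 0.16): it measured 5.82, 5.86, 5.74 and 6.01 in K320E and 5.99, 5.83, 5.80 and 5.84 in controls, a low level in both groups.

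Acid lipases and the sulphotransferase Sult2b1 made up the last step, with a median of 0.0012. Sult2b1, which makes cholesterol sulphate, measured 9.32, 8.77, 8.61 and 8.49 in K320E and 8.14, 8.64, 8.41 and 8.12 in controls. K320E replicates 3 and 4 lay below control replicate 2. Its difference was 0.47 (SE 0.18, limma adjusted p = 0.278) and 0.29 without K320E replicate 1. The 3 lipases of the epidermal cluster, Lipk, Lipm and Lipn, which are expressed late in differentiation, had differences of 0.01, -0.01 and -0.22, that of Lipk being negative (-0.02) after quantile normalisation. Lipn measured 8.73, 8.83, 9.02 and 8.61 in K320E and 8.46, 9.38, 9.58 and 8.65 in controls. The controls fell into a higher pair, replicates 2 and 3, and a lower pair, and the K320E arrays lay between them or at the lower pair's level.

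**Figure D3:**
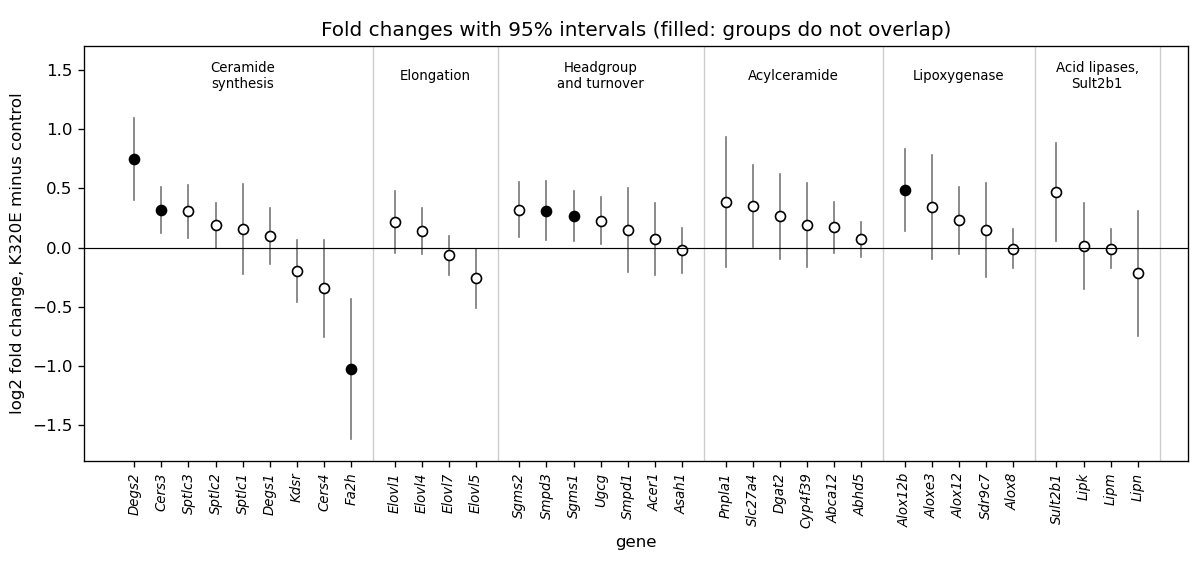
Log2 fold change, K320E minus control (y axis), of the 35 genes by step (x axis) with the 95% interval of the limma fit, unadjusted, and filled points where the groups did not overlap. Degs2 is the highest at 0.75 and Fa2h the lowest at -1.03.

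Set side by side, the steps had medians of 0.16 (ceramide synthesis), 0.04 (elongation), 0.23 (acylceramide), 0.23 (headgroup and turnover), 0.23 (lipoxygenase) and 0.0012 (acid lipases and Sult2b1). These differences between steps were not tested. Elongation and the acid lipases were the steps with as many negative as positive differences, and the acylceramide step the one with positive differences only. With the hair follicle covariate, which itself did not overlap between the groups, 3 of the 6 acylceramide genes were positive. Without K320E replicate 1 the medians of the acylceramide and lipoxygenase steps were 0.13 and 0.11, that of headgroup and turnover 0.20, and that of all 35 genes 0.07.

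Enzymes of the same class were compared within each array in 10 pairs, by an exact two-sided permutation test of 4 against 4 arrays, for which the smallest possible p is 0.0286. No pair passed after adjustment over the 10 pairs. A pair at the smallest possible p could pass only if several others reached it too, so this outcome says little about single pairs. The groups did not overlap for 2 pairs. Degs2 minus Degs1 was 0.65 higher in K320E (SE 0.11, exact p = 0.0286, adjusted p = 0.143), from a mean of -1.17 ± 0.16 on the control arrays to -0.52 ± 0.16 on the K320E arrays (SD, n = 4). Elovl7 minus Elovl1 was lower in K320E by a difference of -0.28 (SE 0.10, exact p = 0.0286, adjusted p = 0.143). Cers4 minus Cers3 differed by -0.66 (SE 0.28, exact p = 0.0857), its groups overlapping because control replicates 2 and 3 lay with the K320E arrays. For Sgms2 minus Sgms1 the difference was 0.05 (SE 0.17, exact p = 0.771) and for Elovl4 minus Elovl1 it was -0.08 (SE 0.08, exact p = 0.486).

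**Figure D4:**
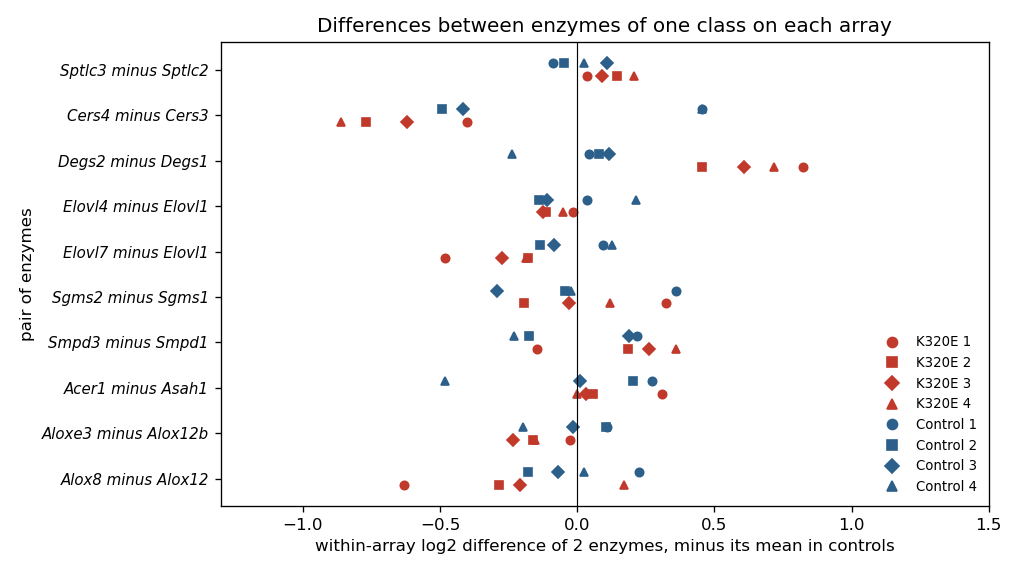
Within-array log2 difference of 2 enzymes of one class, less its mean in controls (x axis), for 10 pairs (y axis), with 1 point per array in the colours and shapes of the replicates. The 4 K320E arrays lie to the right of all controls for Degs2 minus Degs1 and to the left for Elovl7 minus Elovl1.

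The arrays of a group differed in the level of the whole set. K320E replicate 1 was the highest K320E array for 23 of the 35 genes (65.7%, against 30.8% of all genes), and K320E replicate 4 the lowest for 23 (65.7%, against 24.0%). The mean of the 35 genes was 9.98, 9.76, 9.71 and 9.62 in K320E replicates 1 to 4 and 9.52, 9.75, 9.74 and 9.55 in the controls, and the groups overlapped. The mean of 10 granular and cornified layer markers, none of them among the 35, was 11.09, 10.94, 10.83 and 10.81 in K320E and 10.82, 11.03, 10.96 and 10.88 in controls. Within each group these markers put the 4 arrays in the same order as the barrier lipid genes did. With this marker mean as a covariate 3 of the 35 genes passed limma's test, all higher in K320E: Degs2 (0.75, adjusted p = 0.030), Alox12b (0.50, adjusted p = 0.028) and Sult2b1 (0.48, adjusted p = 0.016), where 1.64% of all genes were called. These calls rest on a covariate chosen with the data known.

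Markers of hair follicle and sebaceous gland had lower values in K320E. All 20 hair follicle markers had negative differences (median -0.92), and 0 of 20 passed limma's test over all genes (lowest adjusted p = 0.064). The groups did not overlap for 8 of the 20, all lower in K320E, against 3.75% of all genes in that direction. The mean of the 20 ran from 6.89 to 7.33 in K320E and from 7.41 to 9.03 in controls, with control replicate 4 at 9.03 and control replicate 1 at 8.21. Of 10 sebocyte markers 9 had negative differences (median -0.28), and their mean ran from 7.11 to 7.29 in K320E and from 7.38 to 7.95 in controls. Among them 1 of 10 passed limma's test over all genes (0.194% of all genes were called in that direction). This was Far2, a reductase that makes fatty alcohols, which fell by 0.39 (SE 0.06, limma adjusted p = 0.025). Mc5r, a melanocortin receptor, measured 7.85 in control replicate 4 and 5.42 to 6.06 on the other 7 arrays. The sebocyte list also holds Elovl3, described below. Fa2h, Cers4, Elovl5 and Asah1, the last with a difference of -0.02, were, like both marker lists, highest in control replicate 4. With the hair follicle marker mean as a covariate, the difference was -0.37 for Fa2h, 0.03 for Cers4, -0.04 for Elovl5 and 0.53 for Degs2, none past the threshold, and the median of the 35 genes was 0.03. In that fit 3 of all genes were called (0.0135%), and the covariate itself did not overlap between the groups. Skeletal muscle markers had positive differences in 8 of 8 genes (median 0.64), and 0 of 8 passed limma's test over all genes. Their mean ran from 6.62 to 8.02 in K320E and from 6.11 to 7.10 in controls, so the groups overlapped. It was highest in K320E replicate 3 (8.02). The mean of 8 adipocyte markers was 7.60 in that array against 6.39 to 6.61 in the other 7. The part of these cells in the members' values was not tested.

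**Figure D5:**
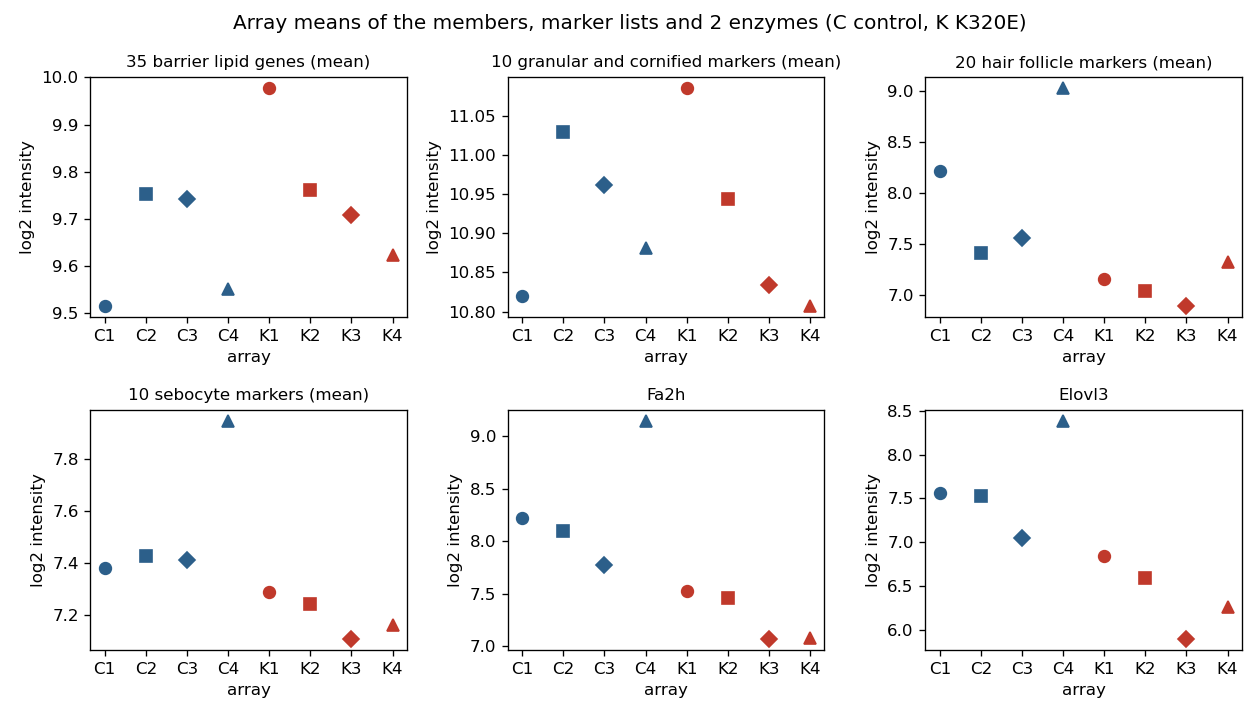
Log2 intensity (y axis) on each array (x axis, C control and K K320E with the replicate number) of the mean of the 35 genes, of 3 marker lists, and of Fa2h and Elovl3. Control replicate 4 is the highest array for the hair follicle and sebocyte markers, Fa2h and Elovl3, and K320E replicate 1 for the 35 genes and the granular markers.

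Of 80 further genes of barrier lipid metabolism 72 were measured, and 1 of 72 passed limma's test over all genes, higher in K320E (0.685% of all genes were called in that direction). This was Pla2g4e, the epsilon form of cytosolic phospholipase A2, which moves acyl chains between phospholipids. It measured 9.03, 8.75, 9.06 and 8.76 in K320E and 7.75, 7.92, 8.12 and 7.69 in controls, and rose by 1.03 (SE 0.11, limma adjusted p = 0.0062), or 2.04-fold. The gap between the groups was wider than the spread within either. It was called whichever array was left out and not with the hair follicle covariate (0.81, limma adjusted p = 0.151). In that fit 0.0135% of all genes were called, and the covariate itself did not overlap between the groups.

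Other genes of sphingolipid turnover and elongation did not pass. Elovl3, an elongase of sebaceous gland and hair follicle, measured 6.85, 6.60, 5.90 and 6.26 in K320E and 7.56, 7.53, 7.04 and 8.38 in controls, a difference of -1.23 (SE 0.28, limma adjusted p = 0.095), with no overlap and with control replicate 4 again the highest. Sgpp2, which removes the phosphate of sphingosine phosphate, measured 7.55, 6.75, 6.95 and 6.87 in K320E and 6.10, 6.22, 6.43 and 6.37 in controls (difference 0.75, limma adjusted p = 0.079). In the list of ceramide transport, hydrolysis and sphingosine metabolism 0 of 19 genes passed, with a median of 0.05 and the lowest difference, -0.25, in B4galt6, a lactosylceramide synthase. In the other elongation and desaturation enzymes 0 of 12 passed (median -0.06), the highest difference being 0.15 in Hsd17b12, the reductase of the elongation cycle.

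The ceramide synthases outside the members ranged from -0.30 in Cers5, whose groups did not overlap, to 0.19 in Cers2, and 0 of 3 passed. Regulators of serine palmitoyltransferase had 0 of 4 genes past the threshold and ranged from -0.20 in Sptssb to 0.12 in Ormdl1. Among 21 other barrier and ichthyosis genes the lowest difference was -0.38 in the cholesterol exporter Abca1 and the median was 0.14. Transcription factors that regulate these lipids had 0 of 13 past the threshold and a median of 0.12, from -0.32 in Pparg, the lipid receptor of sebocytes and fat cells, to 0.38 in Klf4, a factor needed for the barrier. Klf4 measured 10.32, 10.03, 9.90 and 9.76 in K320E and 9.42, 9.63, 9.86 and 9.59 in controls, overlapping through K320E replicate 4 and control replicate 3.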

How the data were processed

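Epidermal RNA on 8 arrays was compared between 4 K320E and 4 control samples, grouped by their titles. The authors deposited log2 intensities for 33793 probe sets, ranging from 4.31 to 13.13, with array medians between 6.06 and 6.11; no source used here states how background was corrected or arrays were normalised, and no further scaling was applied. Probe sets were named through GEO's platform annotation: 23521 had 1 gene symbol, 1814 several and 8458 none. The probe set with the highest mean represented a gene. A linear model with genotype as its only term was fitted to each gene (limma 3.58.1, run under R 4.3.3), with moderated statistics and Benjamini-Hochberg adjustment over 22180 genes and a threshold of 0.05. The number of arrays limits the precision. The scripts were tested on simulated data.

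The 35 members, the lists of partners and markers and the pairs were chosen with earlier results of these data known. Of the marker lists' 113 entries 107 were measured. Values of every array are given for members whose groups do not overlap and for the highest and lowest difference of each step. Of each partner list the called genes and both extremes are named, and of each marker list the 2 most highly expressed genes. Krt2, Mc5r, Cd207, Itgax, and the array values of Cers4 and Abca12, were singled out after their values were seen. All 12 promoter motifs searched are reported, and capitals mark the CACCC box. Alternatives changed 1 choice at a time: the scaling (quantile or median), averaging over probe sets, testing only the 14786 genes of higher level, array weights, a prior with an intensity trend and robust estimation, the replicate number as a block, a hair follicle or granular marker covariate, and arrays left out singly or in pairs.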

Additional observations from a re-analysis of the deposited data

Results flagged for a closer look

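In 10 of 170 groups of 4 arrays examined (5.88%), the highest or lowest array stood apart from the others by more than Dixon's 95% limit, which chance exceeds in about 5% of groups; over all genes the share was 6.47% in K320E and 5.38% in controls. Control replicate 4 was the highest control for Elovl5 (9.20, next 8.82), Sptssb (5.43, next 4.87), Pparg (8.06, next 7.14) and the mean of the sebocyte markers (7.95, next 7.43). K320E replicate 1 was the lowest K320E array for Sptlc3 (11.50, next 11.70) and the highest for the mean of headgroup transfer and turnover (9.34, next 9.17). K320E replicate 2 was the highest for Elovl7 (12.29, next 12.11) and the lowest for Cers2 (7.69, next 7.99). K320E replicate 4 was the lowest for Abca12 (11.88, next 12.02), and control replicate 2 the lowest control for Abca1 (7.83, next 8.17).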

How the results depend on the processing

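The count of the 35 genes called was 0 in the fit reported and 1, Degs2, when only the 14786 genes of higher level were tested (1.95% of them called), with an intensity trend and robust prior (1.06%) or without control replicates 2 and 3 together (0.834%), and 3 with the granular marker covariate. Control replicates 2 and 3 held the highest Degs2 levels of the controls. Leaving out 1 array gave 0 to 1 of the 35 genes called. The 195 calls over all genes became 114 with the replicate block, 3 with the hair covariate, 364 with the granular covariate, 74 without K320E replicate 1 and control replicate 4 together (an alternative chosen after seeing the data), and 53 to 173 when 1 array was left out. Fewest were left without K320E replicate 3 (53), K320E replicate 4 (77), control replicate 1 (87) or control replicate 2 (87). The partner genes called were 1, and 4 when only the 14786 genes of higher level were tested or with the granular covariate, 3 with the intensity trend, 2 without control replicates 2 and 3, 0 with the hair covariate, and 1 to 2 when 1 array was left out. With the hair covariate the medians were 0.0289 for all members, 0.0331 for ceramide synthesis, 0.0387 for headgroup and turnover, 0.0175 for acylceramide synthesis (3 of 6 positive), 0.0499 for the lipoxygenase pathway, -0.0505 for elongation and -0.26 for acid lipases and Sult2b1. Without control replicates 2 and 3 they were 0.30 for ceramide synthesis and 0.29 for acid lipases and Sult2b1, and ceramide synthesis stood at 0.0381 without K320E replicate 1 and control replicate 4 together. Leaving out 1 array gave 0.0365 (without K320E replicate 1) to 0.23 for ceramide synthesis. The cause of these shifts was not tested, and the hair covariate itself did not overlap between the groups. Twnk was called in all 19 alternatives, at 2.23 to 2.38. The correlation of same-numbered arrays' deviations from their group means ran from -0.06 to 0.14. The highest correlation with a control array of another number ran from 0.04 to 0.13. These weak values do not settle whether the replicate number pairs the arrays. With the replicate block 0 of the 35 genes were called. With 3 arrays in a group the exact permutation test of the pairs can give no p below 0.0571, so it says nothing there.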

Other observations

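Markers of the other cell types in the epidermal samples were read from the same fit, here as the mean log2 intensity in K320E and in controls for the most highly expressed genes of each list. The epidermal layers were represented by Asprv1 (12.59 and 12.53) and Hrnr (12.20 and 12.28) for granular and cornified cells (median difference of the list -0.07), by Krt10 (12.91 and 12.91) and Krt1 (12.82 and 12.75) for spinous cells (-0.04) and by Krt14 (12.58 and 12.30) and Krt15 (11.88 and 12.19) for basal cells (0.24). Sebocyte markers were led by Krt79 (10.46 and 10.57) and Far2 (9.90 and 10.28), inner root sheath markers by Tchh (9.23 and 10.54) and Krt25 (9.03 and 10.19) with a median of -1.21, and hair shaft markers by Krtap8-1 (7.81 and 10.22) and Krt34 (7.31 and 8.58) with a median of -0.65. For cells beneath the epidermis, adipocyte markers were led by Fabp4 (10.84 and 9.61) and Lpl (7.70 and 6.93) with a median of 0.12, muscle markers by Tnnt3 (8.61 and 7.58) and Mylpf (8.43 and 7.36), fibroblast markers by Dcn (10.94 and 11.08) and Col1a2 (9.26 and 8.75) with a median of 0.19, and endothelial markers by Cdh5 (6.57 and 6.47) and Pecam1 (6.38 and 6.19) with a median of 0.10.

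Langerhans and dendritic cell markers included 2 genes that passed limma's test over all genes, both encoding chains of class II antigen presenting molecules. H2-Aa fell by 1.05 (adjusted p = 0.0021) and H2-Ab1 fell by 0.98 (adjusted p = 0.013), against 0.194% of all genes called in that direction. The list's median was -0.18, and its most highly expressed genes were Epcam (9.91 and 10.09) and H2-Ab1 (6.80 and 7.78). H2-Aa was low in both groups (5.40 and 6.45). So were Cd207 (5.58 and 5.65) and Itgax (5.73 and 5.76), with differences of -0.07 and -0.03. Whether the number of these cells differed was not tested. Melanocyte markers were led by Mlana (10.35 and 10.74) and Dct (9.66 and 9.94) (median -0.34), macrophage and neutrophil markers by Cd68 (8.89 and 8.38) and Cxcr2 (8.03 and 6.71) (median -0.01), mast cell markers by Kit (8.64 and 8.65) and Cpa3 (7.52 and 6.87) (median 0.35) and T cell markers by Ptprc (7.58 and 8.11) and Cd3g (6.59 and 7.77) (median -0.46). None of these last 4 lists had a gene past the threshold. At an unadjusted p under 0.05 there were 3 of 6 melanocyte, 2 of 8 macrophage and neutrophil, 0 of 5 mast cell and 3 of 4 T cell markers, against 14.8% of all genes.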
